A study of Mus musculus with 2 samples.

Results

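Myosin light chains are the small subunits that wrap the neck of the myosin heavy chain. Each heavy chain carries an essential light chain, which stiffens the lever arm, and a regulatory light chain, which can be phosphorylated by myosin light chain kinases. Muscle fibres of the fast, slow and cardiac types and nonmuscle cells use different genes for both positions, and developing skeletal muscle is known to express chains that the adult keeps in the atrium. The 10 genes described here, of 43346 genes in the files, were taken from a list of symbols: the essential chains Myl1, Myl3, Myl4, Myl6 and Myl6b and the regulatory chains Mylpf, Myl2, Myl9, Myl12a and Myl12b. Each symbol matched 1 gene row and its transcript rows in both libraries.

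RNA came from skeletal muscle of untreated B6NCrl mice at postnatal day 0, with no other genotype, strain or condition in the series. The 2 libraries each started from 13 pg of RNA, an amount the labels equate with 1 cell, taken from 1 pup. The labels call them biological replicates 1 and 2 but give both the same donor entry, so differences between animals, tissue portions and libraries cannot be told apart. Levels are TPM values, which state a gene's part of all transcripts after adjustment for length, and are given as mean ± SD over n = 2 libraries. With a single group and 2 libraries no p-value was computed, and a difference between genes was called larger than the spread when it had the same sign in both libraries and its mean log2 ratio exceeded 2 SD, which is a description and not a test.

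The essential chains differ at their start, and their opening coding bases are shown because the main transcript result rests on them. Capitals mark the bases before the stretch that aligns with the part shared by both Myl1 forms, and lower case marks the first 20 bases of that stretch, all 5′ to 3′ from GENCODE M21 transcripts on GRCm38. Myl1-201 encodes the long fast essential chain MLC1f and Myl1-202 the short chain MLC3f.
Myl1-201: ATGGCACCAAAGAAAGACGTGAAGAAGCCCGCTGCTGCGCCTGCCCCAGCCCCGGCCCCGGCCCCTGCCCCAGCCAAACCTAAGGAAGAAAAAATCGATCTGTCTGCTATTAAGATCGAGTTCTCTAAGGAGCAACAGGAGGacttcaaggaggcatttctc
Myl1-202: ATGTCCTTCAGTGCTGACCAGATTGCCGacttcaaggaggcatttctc
Myl6-201: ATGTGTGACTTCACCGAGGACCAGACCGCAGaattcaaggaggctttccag
Myl4-202: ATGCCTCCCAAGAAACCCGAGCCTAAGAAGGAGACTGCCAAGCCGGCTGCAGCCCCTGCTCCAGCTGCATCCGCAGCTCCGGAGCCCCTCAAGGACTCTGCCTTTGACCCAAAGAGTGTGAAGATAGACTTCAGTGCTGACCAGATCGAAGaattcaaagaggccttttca
Myl3-201: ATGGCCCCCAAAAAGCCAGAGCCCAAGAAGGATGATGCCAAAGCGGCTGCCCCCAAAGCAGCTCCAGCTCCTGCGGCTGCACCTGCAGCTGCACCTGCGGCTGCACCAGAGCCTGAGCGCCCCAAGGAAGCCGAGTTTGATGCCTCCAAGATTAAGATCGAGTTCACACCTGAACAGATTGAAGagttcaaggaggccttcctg
The start before the shared stretch was 142 bases in Myl1-201, 151 in Myl4-202 and 184 in Myl3-201, but 28 in Myl1-202 and 31 in Myl6-201. The long starts encode the amino-terminal extension that is known to reach toward actin, and the short chains lack it. Over the shared 422 bases, Myl1 matched Myl4 at 75.4% of positions, Myl6 at 74.2% and Myl3 at 73.2%.

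Both fast chains stood far above all other light chains. Myl1, the fast essential chain (chromosome 1, 66924295 to 66945404), stood at 22507 TPM in replicate 1 and at 27446 in replicate 2. It was the second highest gene in each library. Mylpf, the fast regulatory chain (chromosome 7, 127208890 to 127214298), stood at 7224 TPM in replicate 1 and at 15814 in replicate 2, at ranks 13 and 4. The values for Myl1 lay close together, while Mylpf was the member with the widest absolute gap between libraries. Their means were 24977 ± 3492 and 11519 ± 6074 TPM, and the next gene, Myl12a, had a mean of 886 ± 204. Reads were many for both fast chains, with 407927 and 635547 expected counts on Myl1 and 107867 and 301934 on Mylpf.

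Myl4, the essential chain of the atrium and of fetal muscle (chromosome 11, 104550663 to 104595753), was the highest light chain of a cardiac type. It had 671 TPM in replicate 1 and 733 in replicate 2, the closest pair among detected members by fold. Myl3, the slow and ventricular essential chain (chromosome 9, 110741861 to 110769798), had 446 TPM in replicate 1 and 200 in replicate 2. Its partner Myl2, the slow and ventricular regulatory chain (chromosome 5, 122100951 to 122113472), had 223 and 338. These genes moved in opposite directions between the libraries, so the library higher in Myl3 was lower in Myl2. In tissue RNA, fewer cells of a type and less RNA per cell cannot be told apart.

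Nonmuscle and smooth muscle chains were present at moderate levels, with the exception of Myl6b. Myl12a, a regulatory chain of nonmuscle myosin (chromosome 17, 70993656 to 71002878), had 741 TPM in replicate 1 and 1030 in replicate 2. Its neighbour Myl12b (chromosome 17, 70973133 to 70990890) had 159 and 232. Myl6, the essential chain of nonmuscle and smooth muscle myosin (chromosome 10, 128490860 to 128494145), had 635 and 568 TPM, and Myl9, the smooth muscle regulatory chain (chromosome 2, 156775420 to 156781658), had 315 and 374. In each of these genes both libraries lay within 1.5-fold of each other.

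Myl6b, an essential chain described in slow muscle and nonmuscle cells, was not seen. It had 0 expected counts in replicate 1 and 0 in replicate 2. A count of 0 allows up to 3 counts, here 0.133 and 0.104 TPM, counting error only. Myl6b lies next to Myl6 on the same strand of chromosome 10 (128494157 to 128498685), and Myl6 held 8767 and 10037 expected counts. Detection was set at 1 TPM and 5 expected counts or more. By this rule 9 of 10 members were present in both libraries, where 10% of all genes in the files were.

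**Figure D1:**
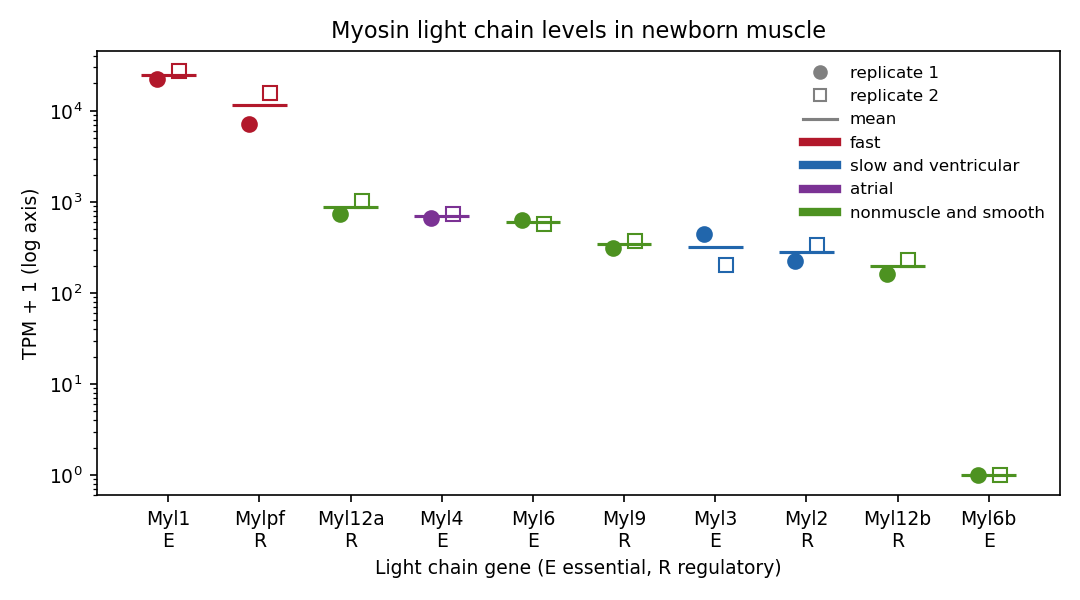
TPM + 1 on a log axis for the 10 light chain genes in order of mean level, with filled circles for replicate 1, open squares for replicate 2 and a line at the mean. Myl1 and Mylpf lie at 7224 TPM or more in both libraries, 7 genes lie between 159 and 1030 TPM, and Myl6b lies at 0.

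Of 9 neighbouring pairs in the order of mean level, 5 differed by more than their spread. Myl1 stood above Mylpf (log2 ratio 1.22 ± 0.60), Mylpf above Myl12a (3.61 ± 0.46), Myl6 above Myl9 (0.80 ± 0.29), Myl2 above Myl12b (0.51 ± 0.04), and Myl12b above the undetected Myl6b. The other 4 pairs could not be ordered. Myl12a over Myl4 gave 0.32 ± 0.24 and Myl4 over Myl6 gave 0.22 ± 0.20. Myl9 over Myl3 gave −0.50 in replicate 1 and 0.90 in replicate 2, and Myl3 over Myl2 gave 1.00 and −0.75, so these neighbours changed places between libraries.

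Fast chains made up most light chain RNA. All 10 members together made up 3.29% of the TPM of replicate 1 and 4.67% of that of replicate 2. Of this sum, the fast class of Myl1 and Mylpf held 91.4 ± 1.60%, with 90.3% and 92.6% in the libraries. The nonmuscle and smooth class held 5.62% and 4.72%, a mean of 5.17 ± 0.640%. Myl4 held 2.04% and 1.57%, a mean of 1.80 ± 0.332%, and the slow and ventricular class of Myl2 and Myl3 held 2.03% and 1.15%, a mean of 1.59 ± 0.624%. Every class other than the fast one held a smaller share in replicate 2 than in replicate 1.

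Essential chains outweighed regulatory chains in the sum, through Myl1. Essential chains held 73.7% of light chain TPM in replicate 1 and 61.9% in replicate 2, a mean of 67.8 ± 8.31%. Myl1 alone was 93.8 ± 1.44% of the essential sum, and Mylpf was 86.1 ± 3.90% of the regulatory sum. Without these genes the essential share was 54.9% in replicate 1 and 43.2% in replicate 2, so the remaining 8 members showed no common direction. The ratio of all essential to all regulatory chains was 2.80-fold in replicate 1 and 1.63-fold in replicate 2, and its mean log2 of 1.09 ± 0.55 did not exceed 2 SD.

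The balance between essential and regulatory chains differed by class in value. In the fast class Myl1 exceeded Mylpf by 3.12-fold in replicate 1 and 1.74-fold in replicate 2, just beyond 2 SD. In the slow and ventricular class Myl3 was 66.6% of the pair in replicate 1 and 37.2% in replicate 2, with no common direction. In the nonmuscle and smooth class the regulatory chains Myl9, Myl12a and Myl12b together exceeded Myl6, with a log2 ratio of essential to regulatory of −1.23 ± 0.42. Within that class Myl12a held 43.4 ± 4.71%, Myl6 30.0 ± 6.05%, Myl9 17 ± 0.0316% and Myl12b 9.57 ± 1.37%.

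**Figure D2:**
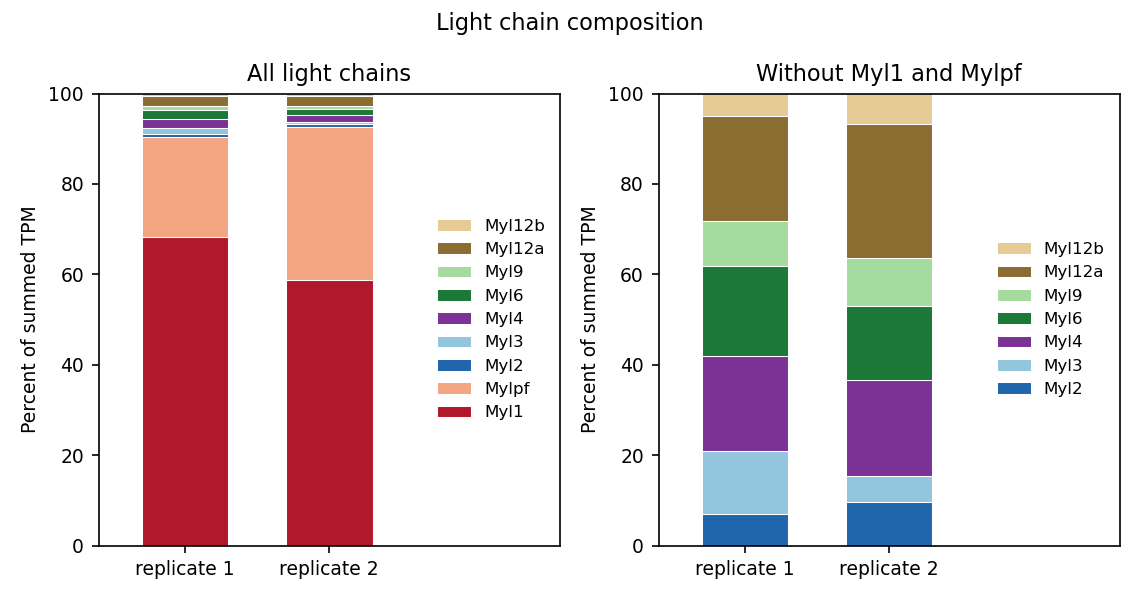
Percent of summed light chain TPM in each library as stacked bars, for all members on the left and without Myl1 and Mylpf on the right. Myl1 and Mylpf fill 90.3% of the bar in replicate 1 and 92.6% in replicate 2, and on the right the Myl3 part is larger in replicate 1.

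Most Myl1 RNA was assigned to the short form. The gene has separate start regions for its forms, and transcripts were sorted by their annotated coding start into long (Myl1-201 and Myl1-206) and short (Myl1-202 and Myl1-203) forms. The short form reached 17672 and 21922 TPM in replicates 1 and 2, and the long form 4155 and 4758. The short form was therefore 78.5% and 79.9% of Myl1, a mean of 79.2 ± 0.958%, and the long form 17.9 ± 0.794%. Short over long gave a log2 ratio of 2.15 ± 0.08, which is larger than the spread, with 4.25-fold in replicate 1 and 4.61-fold in replicate 2. The remaining 4 of 8 annotated Myl1 transcripts were Myl1-207, whose coding start is elsewhere, at 0.0166 ± 0.00410%, and 3 noncoding ones at 2.89 ± 0.160% together.

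This split rests on the 5′ exons. Myl1-201 spans positions 66924295 to 66945143 of chromosome 1 on the minus strand and encodes 188 codons, while Myl1-202 spans 66924298 to 66935354 and encodes 150. Both have 7 exons, of which 5 are shared apart from 3 bases at the 3′ end. The long form has 380 bases of its own in 2 exons and the short form 104 bases in 2 exons, starting 9789 bases downstream. Reads from the shared exons cannot be assigned to a form directly and were divided by the authors' model. The authors' posterior SD, which covers this division, was 433 counts on the 302110 expected counts of Myl1-202 in replicate 1 and 526 on 481187 in replicate 2. Evenness of coverage along the transcripts was not tested, since the files hold no positions of reads.

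**Figure D3:**
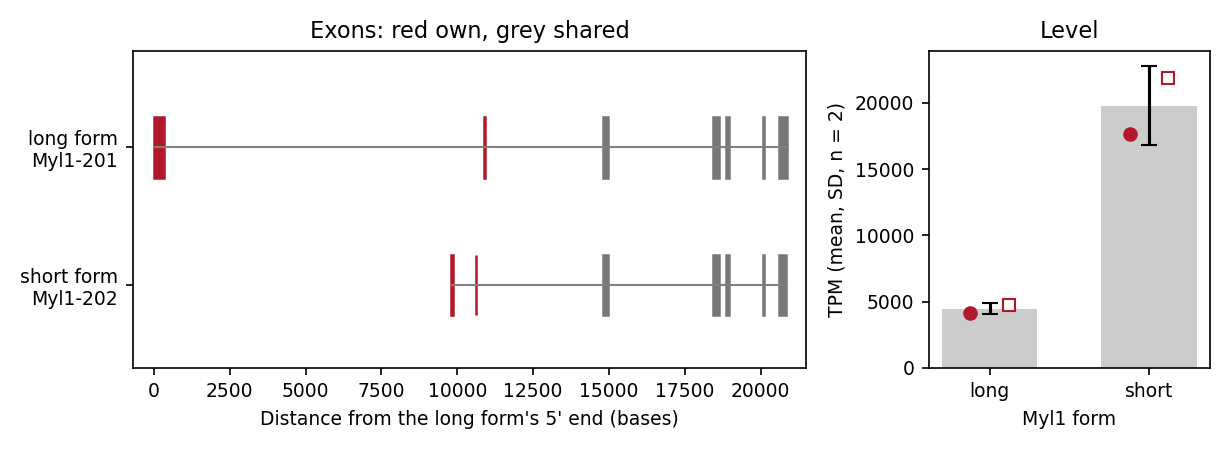
Left, exons of the long and short Myl1 transcripts by distance in bases from the 5′ end of the long form, with own exons in red and shared exons in grey. Right, TPM of each form with bars for the mean, error bars for the SD, circles for replicate 1 and squares for replicate 2; the short form reaches 17672 and 21922 against 4155 and 4758 for the long form.

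Most essential chain RNA was thus assigned by the authors' model to transcripts without the long start. This grouping was chosen after the values were seen. MLC3f transcripts and Myl6 summed to 18307 and 22489 TPM in replicates 1 and 2, and coding transcripts with an extended start, from Myl1, Myl3, Myl4 and Myl6b, summed to 4986 and 5515. The short chains were 79.5 ± 1.21% of both sums together. Myl1-202 alone gave 17587 and 21874 TPM of the short sums, so this share rests on the division of Myl1 reads. Noncoding transcripts and coding transcripts that start elsewhere, with 966 and 943 TPM, were left out. Of the extended sum, long Myl1 was 83.3% in replicate 1 and 86.3% in replicate 2, and Myl3 and Myl4 made up the rest.

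The other members had a leading coding transcript of 1 kind. Mylpf-201, with 169 codons, held 88.9% of its gene in replicate 1 and 88.5% in replicate 2, and Mylpf-203, a retained-intron form of 285 bases, held 9.13% and 10.9%. Myl4-202, with 193 codons, held 62.5% and 68.9%, and the retained-intron form Myl4-204 held 28.7% and 23.5%. Of the members with more than 1 transcript, Myl4 had the largest noncoding part, since its coding transcripts summed to 71.2% and 76.4%. Myl2-201 held 100% and 99.9% of Myl2, and Myl9-201 held 100% and 94% of Myl9. In Myl3 the share of Myl3-201, with 204 codons, was 79.2% in replicate 1 and 98.0% in replicate 2, and Myl3-202 took 18.2% and 0.460%. Both Myl3 transcripts differ in length between the annotation the authors used and GENCODE M21, so the codons given, and the coding starts used for grouping, may not describe the Myl3 forms that were quantified. Myl6 and Myl6b have 1 annotated transcript each in the files, so their forms could not be compared.

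Myl12a and Myl12b are close copies whose reads could be confused. Their 516 coding bases differed at 18 positions, an identity of 96.5%, while Myl9 matched them at 85.7% and 86.4%. The coding stretch with most differences, bases 145 to 204, is shown as an example of what separates the copies, with 9 of the 18 differing bases in capitals.
Myl12a: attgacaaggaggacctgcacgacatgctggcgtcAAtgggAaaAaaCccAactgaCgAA
Myl12b: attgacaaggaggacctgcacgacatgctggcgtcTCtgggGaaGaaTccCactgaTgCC
Of 417 windows of 100 coding bases in Myl12a, 3 occurred unchanged in Myl12b. The authors' posterior SD was 14.0 of 17594 expected counts on Myl12a in replicate 1 and 18.6 of 30130 in replicate 2, a value that covers the division of shared reads. Myl12a exceeded Myl12b by 4.64-fold in replicate 1 and 4.42-fold in replicate 2, and held 82.0 ± 0.519% of the pair. Myl12b-201, the leading Myl12b transcript, had 1253 bases in the annotation the authors used and 2143 in GENCODE M21. Myl12a-201 had 980 in both. The effect of this difference on the ratio was not tested. Other pairs within the essential or within the regulatory chains shared no window of 100 coding bases.

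Between the libraries, most light chains differed by less than 2-fold. Of the 9 members with reads, 2 differed by more than 2-fold, where 44.7% of genes detected in both libraries did, and 32.6% of the 1178 such genes with a mean of at least 100 TPM. Mylpf was 2.19-fold higher in replicate 2 and Myl3 2.22-fold higher in replicate 1. Replicate 2 was higher for 7 of the 9 members, against 51.4% of genes of at least 100 TPM, and the median log2 ratio of replicate 1 to replicate 2 was −0.29 for members and −0.04 for those genes. With 1 library on each side there is no replicate check, and these values describe the libraries only.

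The scale set by the spike-in RNAs gave other values. Added control RNAs held 9.44% of replicate 1 TPM and 4.54% of replicate 2 TPM, and the 25 of them that reached 10 counts in each library had a median log2 ratio of 0.98. Relative to them, 7 members were more than 2-fold higher in replicate 2. On this scale the log2 ratio of Myl6 changed from 0.16 to −0.82, and that of Myl3 from 1.15 to 0.17. The scale moves every gene by the same 0.98, and the share of all genes past 2-fold on it was not computed. The count of 7 thus does not set the light chains apart from other genes. Centring on the median gene moved values by 0.04 and left 2 members over 2-fold.

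**Figure D4:**
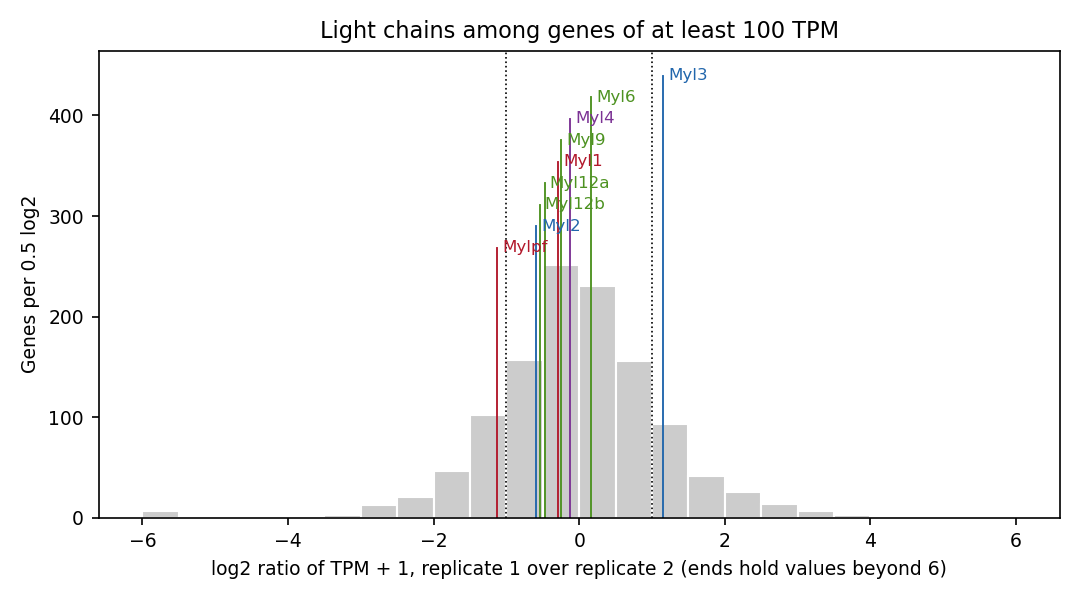
Histogram of the log2 ratio of replicate 1 to replicate 2 for 1178 genes of at least 100 TPM, with lines for the 9 detected light chains and dotted lines at 2-fold. Mylpf at −1.13 and Myl3 at 1.15 lie beyond the dotted lines and the other 7 between them.

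Heavy chains that carry the light chains were lower in TPM, which is adjusted for length. The sarcomeric heavy chains Myh1, Myh2, Myh3, Myh4, Myh7 and Myh8 summed to 3898 TPM in replicate 1 and 4677 in replicate 2. The sarcomeric essential chains Myl1, Myl3 and Myl4 stood 6.06-fold and 6.07-fold above this sum, nearly the same in both libraries. The sarcomeric regulatory chains Mylpf and Myl2 stood 1.91-fold and 3.45-fold above it. Before adjustment for length, Myh8 had 477380 and 783923 expected counts in replicates 1 and 2, against 407927 and 635547 for Myl1. The other heavy chains had fewer counts than Myl1. Whether long and short transcripts were recovered equally in the amplified cDNA was not tested, so these folds describe TPM only. Of 10 heavy chains, 6 were detected in both libraries, led by the perinatal chain Myh8 at 3713 ± 671 TPM and the embryonic chain Myh3 at 417 ± 83.4. Myh7, the slow heavy chain and partner of Myl2 and Myl3, was 142 TPM in replicate 1 and 57.2 in replicate 2, so like Myl3 it was over 2-fold higher in replicate 1, while Myl2 was higher in replicate 2.

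Nonmuscle and smooth muscle heavy chains were much lower in TPM than their light chains, with the same limit on recovery by length. Myh9, Myh10, Myh11 and Myh14 summed to 11.9 TPM in replicate 1 and 54.9 in replicate 2, against 1850 and 2204 for the light chains of that class. Myh9, a nonmuscle heavy chain, had 11.7 and 33.4 TPM, and Myh10, another, had 0.250 and 14.2. Myh11, the smooth muscle heavy chain, had 0 reads in replicate 1 and 1504 in replicate 2, while Myl9 was 315 and 374 TPM. Myh14 had 0 reads in both libraries.

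Regulators of the regulatory chains were found at low levels. Of the 9 kinases and phosphatase subunits reported here, from a longer list, 5 were detected in both libraries, 3 in 1 library and 1, Dapk3, in neither, against 10% of all genes detected in both. Mylk2, the skeletal muscle light chain kinase, had 29.8 TPM in replicate 1 and 2.51 in replicate 2. Mylk4, a related kinase, had 13.4 and 16.0. Kinases past the detection rule in replicate 1 alone were Mylk, the smooth muscle form, with 2450 reads against 0, and Mylk3, the cardiac form, with 3275 against 0. Among phosphatase genes, the targeting subunit Ppp1r12b had 95.8 and 41.3 TPM, Ppp1r12c 36.9 and 35.5, the catalytic subunit Ppp1cb 46.2 and 33.0, and Ppp1r12a 32.3 and 0.590. Of the 5 detected in both, Mylk2 and Ppp1r12b differed by more than 2-fold, against 44.7% of all genes detected in both libraries. Mylk2 and Ppp1r12b were higher in replicate 1.

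**Figure D5:**
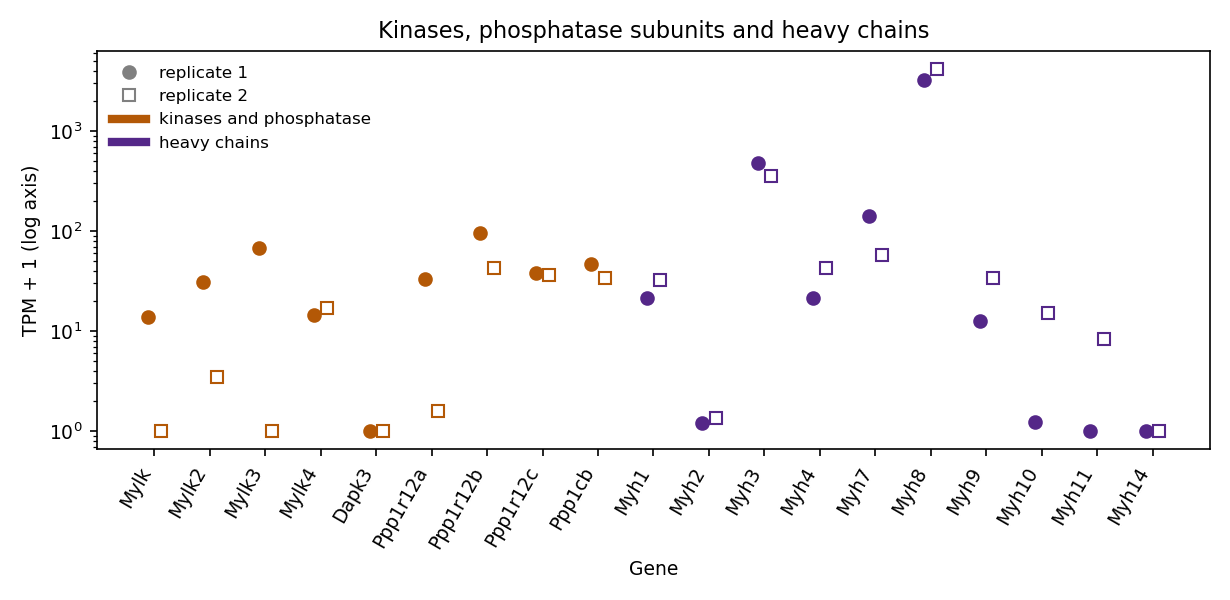
TPM + 1 on a log axis for 9 kinases and phosphatase subunits and 10 heavy chains, with filled circles for replicate 1 and open squares for replicate 2. Myh8 and Myh3 stand highest, and Mylk, Mylk3 and Ppp1r12a are near the bottom in replicate 2 only.

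Marker genes were set beside the classes, and their part in the light chain levels was not tested. All 6 skeletal muscle markers were detected in both libraries, with sums of 107650 and 109139 TPM. Of the 6 heart markers, which include Myl2 itself, Myl2 was the only 1 detected. Nppa, Tnni3 and Ryr2 had 0 reads in both libraries, Myh6 had 9 and 5 reads, and Myl7, the atrial regulatory chain, had 0 and 1. The atrial essential chain Myl4 was thus present without its usual atrial partner, and Myl10, a further regulatory chain, had 0 reads in both. Smooth muscle and mural markers had 3 of 8 detected in both and sums of 402 and 667 TPM, of which Acta2 gave 319 and 487. Myh11 and Cnn1 had 0 reads in replicate 1, and Tagln, Kcnj8 and Cspg4 were also higher in replicate 2. Rgs5, at 53.0 and 31.6 TPM, and Pdgfrb, at 11.5 and 0.63, were higher in replicate 1. Fibroblast markers were 4 of 4 with sums of 5184 and 3114, and endothelial markers 3 of 4 with 489 and 231. Of the endothelial sums Pecam1 gave 182 and 0.06, Cdh5 22.9 and 2.70, and Egfl7 209 and 140, while Esam gave 74.5 and 88.8. Leukocyte and platelet markers were 2 of 6 with 490 and 537, from Pf4 at 325 and 394 and C1qa at 165 and 142. The leukocyte markers Ptprc, with 3 and 0 reads, and Csf1r, with 7 and 0, were not detected, and Ppbp and Itga2b were at 0.

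Genes nearest in level over both libraries were sought among 34556 genes with a symbol that are not pseudogenes, as the smallest distance in log2(TPM + 1). For Myl1 these were the fast troponin C gene Tnnc2 at a distance of 0.49, the creatine kinase gene Ckm at 1.25 and mt-Atp6 at 1.28. For Mylpf they were the fast troponin T gene Tnnt3 at 0.28, the tropomyosin gene Tpm1 at 0.62 and the aldolase gene Aldoa at 0.72. Tnnt3, with 7674 and 13145 TPM, was higher in replicate 2 as Mylpf was, which follows from its choice by nearness to Mylpf. For Myl4 they were Rps15, Hmgn2 and Ndufb7, at distances of 0.07 to 0.08, and for Myl6 they were Rpl38 at 0.06, Mfap2 at 0.07 and Tuba1b at 0.10. With 2 libraries this measures likeness of level and not of pattern.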

How the data were processed

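Libraries of amplified cDNA were made by a SmartSeq protocol from RNA above a size of 200, with spike-in RNAs added, per the labels' protocols. The authors deposited unscaled expected counts, the model's estimate of reads on each gene or transcript. Deposited TPM values were scaled by the authors to a fixed sum over all rows, spike-ins included. The percent of a gene on each transcript, the posterior mean TPM and the posterior SD of counts were also deposited. Columns are those of RSEM per the file headers, and the descriptions deposited with the files name mm10 and GENCODE M4. Neither an aligner nor the use of strand is stated (not given in the sources used here). Depth was 32103374 and 38977618 expected counts in replicates 1 and 2, without molecular identifiers, so limits cover counting error only.

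Symbols, transcript types, positions and sequences came from GENCODE M21 on GRCm38, matched by identifier without version. Of 52 member transcripts, 48 had the same length in M21. Of the other 4, 3 are of Myl3 and 1 is Myl12b-201. Myl12b also has a second identifier in M21, not analysed here. Ratios used log2(TPM + 1). Coding sequences were aligned globally with Biopython 1.88. TMM factors came from edgeR 4.0.16 on rounded expected counts, for scaling only. Python 3.11.15, numpy 2.4.6 and pandas 2.3.3 did the rest. The fold calculation was tested on simulated counts with counting error only. These lack the spread seen between the 2 libraries, so the test checks the calculation and not the 2-fold differences reported. All 10 members were named, and members and lists were chosen with earlier results of these data known. Alternatives covered unit, pseudocount, filter, transcript set, class and scaling. The listed regulators included 2 further kinases that are not reported here.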

Additional observations from a re-analysis of the deposited data

How the results depend on the processing

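The essential, fast and slow shares moved by less than 1 SD under expected counts, posterior mean TPM, coding transcripts, the added chains Myl7 and Myl10 and the filter on low counts. The log2 ratio of Myl1 to Mylpf moved by less than 1 SD under the first 3 of these and with pseudocounts of 0.1 and 10. Taken over expected counts, the nonmuscle and smooth share was 6.27% and the short Myl1 form 75.1%. Over protein-coding transcripts only, Myl4 was 1.40% of light chain TPM and the short Myl1 form 81.6% of Myl1. Centred on spike-ins, 7 members in place of 2 were over 2-fold apart, and the log2 ratio of Myl6 turned from 0.16 to −0.82. This centring moves every gene equally, and the share of all genes over 2-fold under it was not computed. Expected counts scaled by TMM left 2 members over 2-fold. With TPM rescaled without spike-ins and other control rows, mean Myl4 was 755 in place of 702 TPM, a move of more than 1 SD. Every other member level moved by less than 1 SD, and the mean summed level was 42657 in place of 39828 TPM. Placing Myl6b with the slow chains changed no share, as it had 0 reads. With n = 2, leaving out a library gives the other library's value, and so cannot test stability. Both libraries come from 13 pg of RNA, and 44.7% of detected genes differed between them by more than 2-fold.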
